A study of Rattus norvegicus with 4 samples.

Results

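Pancreatic lipases and their cofactor, pancreatic amylase, a pancreatic-family ribonuclease and 3 zymogen granule proteins were examined in RNA of cells labelled as mast cells, from the lymph node that drains the pancreas. The 10 genes were Pnliprp1, Pnliprp2, Clps, Cel, Pla2g1b, Amy2a3, Rnase1l2, Gp2, Sycn and Zg16, products of the pancreatic acinar cell that are not proteases. Each was found by its symbol on 1 probe set of the array, so the group comprised 10 of the 31042 probe sets that are not controls and 10 of the 9349 genes tested. The genes had been picked because their signal stood higher in the DRlyp/lyp pool than in the DR+/+ pool. That difference is therefore given as a description, without a test of the 10 genes.

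All rats were female BioBreeding rats at day 65. DRlyp/lyp rats carry 2 copies of lyp, a mutation of Gimap5 that leaves few T cells in the periphery, and are prone to autoimmune diabetes; DR+/+ rats carry the normal allele and are resistant. Gimap5 itself read 518.3 and 514.8 on the DRlyp/lyp and 399.8 and 531.7 on the DR+/+ arrays; lyp is a frameshift, so its transcript level does not check the labels. The cells are labelled AA4+, AA4 being an antibody against rat mast cell gangliosides. Each group is a single pool of RNA from 8 animals, amplified in 2 independent reactions for 2 arrays, so the SD given for a pool covers amplification and array only and says nothing of the spread between animals. Kit, the stem cell factor receptor that marks mast cells, read 1.4 and 2.0 on the DRlyp/lyp arrays and 10.4 and 11.3 on the DR+/+ arrays, all below the dimness filter of 28.3. The mast cell carboxypeptidase Cpa3 (522 ± 8.63 and 444 ± 25.7; SD, n = 2 arrays) and the chymase Cma1 (287 ± 26.8 and 289.8 ± 21.8) lay above that filter in the DRlyp/lyp and the DR+/+ pool. So did markers of lymphocytes. Among them were the T cell kinase Lck (2912 ± 3.11 and 660.5 ± 36.7) and the B cell gene Ms4a1 (3816 ± 132 and 4192 ± 296). The higher Lck value was that of the rats known for few peripheral T cells. Of 12 mast cell genes tested, 5 were called higher in the DRlyp/lyp pool and 3 lower. In the same order of pools, Mcpt1 read 1633 ± 44.5 and 662.1 ± 9.55 and Il1rl1 116.8 ± 4.31 and 11.2 ± 1.27. The tryptases were lower, Tpsab1 at 24.85 ± 7.0 and 89.9 ± 18.2 and Tpsb2 at 31.55 ± 4.03 and 91.0 ± 2.26.

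The acinar cell of the exocrine pancreas makes digestive enzymes in bulk, packs them as zymogens or active enzymes into zymogen granules and releases them into the duct on a meal. Lipases, phospholipase and esterase split dietary fats, colipase anchors lipase to fat droplets coated with bile salts, amylase cleaves starch and ribonuclease cleaves RNA. Gp2, syncollin (Sycn) and the lectin Zg16 line the inner face of the granule membrane. Outside the pancreas, Gp2 is also known from M cells of the gut, Zg16 from goblet cells and Pnliprp2 from cytotoxic T cells of the mouse.

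RefSeq promoter windows, 250 bases before to 50 after the gene's start on the GRCr8 assembly, were held for 7 of the 10 genes: Pnliprp1, Pnliprp2, Cel, Pla2g1b, Amy2a3, Rnase1l2 and Gp2. They were searched for CANNTG, the E box that bHLH factors bind, and for TTCCC, each on both strands, since the acinar factor PTF1 binds a motif with these parts, and for TATAAA on the gene's own strand. No matches of different motifs overlapped. CANNTG was present in 6 of 7 windows (72.1% of all 33469 promoters) and TTCCC in 6 of 7 (62.3%), with both in 6 of 7 (44.7%). TATAAA began 40 to 15 bases before the start in 3 of 7 windows, against 1.5% of all promoters; the choice of this motif was made after the windows had been seen. All 10 genes are higher in the signals that follow, so the windows shown were picked for their matches and not for their signal. These are the 3 windows with TATAAA and that of Cel, which held 4 matches of CANNTG and 3 of TTCCC. They lie at chr2:204014363-204014662 (minus strand, Amy2a3), chr12:46812604-46812903 (minus strand, Pla2g1b), chr1:183243905-183244204 (minus strand, Gp2) and chr3:32288970-32289269 (minus strand, Cel). Capitals mark the matches of the 3 motifs.
Amy2a3: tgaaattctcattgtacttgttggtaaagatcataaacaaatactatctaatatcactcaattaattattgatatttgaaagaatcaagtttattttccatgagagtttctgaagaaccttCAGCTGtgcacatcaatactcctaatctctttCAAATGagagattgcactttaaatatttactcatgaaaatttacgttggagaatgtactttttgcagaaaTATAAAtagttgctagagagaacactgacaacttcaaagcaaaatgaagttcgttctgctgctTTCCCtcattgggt
Pla2g1b: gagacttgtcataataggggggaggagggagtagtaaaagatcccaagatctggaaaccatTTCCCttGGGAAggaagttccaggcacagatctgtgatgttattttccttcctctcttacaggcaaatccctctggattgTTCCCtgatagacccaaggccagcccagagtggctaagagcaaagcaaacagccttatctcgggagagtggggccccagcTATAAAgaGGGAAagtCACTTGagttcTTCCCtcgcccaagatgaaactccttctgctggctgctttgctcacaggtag
Gp2: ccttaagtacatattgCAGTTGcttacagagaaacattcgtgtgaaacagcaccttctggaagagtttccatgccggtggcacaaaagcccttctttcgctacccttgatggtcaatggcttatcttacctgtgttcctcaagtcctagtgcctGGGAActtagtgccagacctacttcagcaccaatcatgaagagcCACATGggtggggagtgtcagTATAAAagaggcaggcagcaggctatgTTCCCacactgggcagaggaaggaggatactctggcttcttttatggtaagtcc
Cel: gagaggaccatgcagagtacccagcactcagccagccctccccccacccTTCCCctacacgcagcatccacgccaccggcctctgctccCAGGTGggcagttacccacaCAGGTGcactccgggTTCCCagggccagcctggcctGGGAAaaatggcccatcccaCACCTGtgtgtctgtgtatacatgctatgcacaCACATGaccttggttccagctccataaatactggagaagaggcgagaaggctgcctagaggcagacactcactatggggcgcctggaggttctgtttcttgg
The Pnliprp2 window held none of the 3 motifs. A match is a stretch of letters and no binding was measured.

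The fat-splitting enzymes and their cofactor read between 139.6 and 582.8 in the DRlyp/lyp pool and below the filter in the DR+/+ pool. Pnliprp1 (probe set 1368532_at), a lipase-related protein with little activity of its own on triglycerides, read 549.8 and 582.8 on the DRlyp/lyp arrays and 15 and 8.5 on the DR+/+ arrays. Pnliprp2 (1387516_at), which splits galactolipids and phospholipids, read 225.3 and 259.2 against 2.1 and 0.5. Both DR+/+ values of Pnliprp2 lay under the floor of 6.8, the pooled 25th percentile at which values were set before log transformation. Clps (1368196_at), colipase, read 571.1 and 487.8 against 21.4 and 13.1. Cel (1368396_at), the bile salt-stimulated lipase, read 411.3 and 444.3 against 17.1 and 15.4. Pla2g1b (1370257_at), the secreted phospholipase A2 that trypsin activates, read 139.6 and 283.0 against 3.7 and 5.9. The arrays of the groups did not overlap for any of the 5.

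Where both DR+/+ arrays were dim, only a lower bound on the fold can be given, namely the DRlyp/lyp signal over the filter value of 28.3. These bounds, from mean log2 values, were at least 20-fold for Pnliprp1, at least 18.7-fold for Clps, at least 15.1-fold for Cel, at least 8.54-fold for Pnliprp2 and at least 7.02-fold for Pla2g1b. The order of the bounds follows the DRlyp/lyp signal of each probe set and is no order of change.

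Amylase and ribonuclease were the members with a DR+/+ signal near the filter. Amy2a3 (1369503_at), pancreatic alpha-amylase, read 1540.8 and 1614.5 on the DRlyp/lyp arrays and 29.7 and 39.2 on the DR+/+ arrays, that is 1578 ± 52.1 and 34.5 ± 6.72 (SD, n = 2 arrays), or 46.2-fold. Rnase1l2 (1393026_at) read 1272.6 and 1509.8 against 29.2 and 26.0, that is 1391 ± 168 and 27.6 ± 2.26, or 50.3-fold. Those DR+/+ values lay so close to the filter that with a dim pool set at the pooled 60th percentile, 56.6, the folds became bounds of at least 27.9-fold and at least 24.5-fold. Amylase genes are near copies of one another. A further probe set, which the annotation gives to more than 1 amylase gene and which was not counted as a member, read 6301.8 and 5940.5 against 76.6 and 87.8, above the filter on all 4 arrays and 74.6-fold apart. The set given to Amy1 alone, looked at after the values of Amy2a3 were seen, did not exceed 19.4 on any array.

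The granule membrane and lining genes had the lowest bounds of the group together with Pla2g1b and Pnliprp2. Gp2 (1386933_at), the main glycoprotein of the granule membrane, read 178.4 and 175.6 against 1.5 and 4.5 (at least 6.25-fold). Sycn (1370837_at), syncollin, read 195.8 and 233.5 against 3.0 and 8.1 (at least 7.56-fold). Zg16 (1368586_at), the granule lectin, read 190.5 and 230.9 against 19.3 and 3.7 (at least 7.41-fold). The DR+/+ arrays of Zg16 differed from each other more than those of any other member on the floored log2 scale (SD 1.06), and for all 3 genes each DRlyp/lyp array lay above each DR+/+ array.

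**Figure D1:**
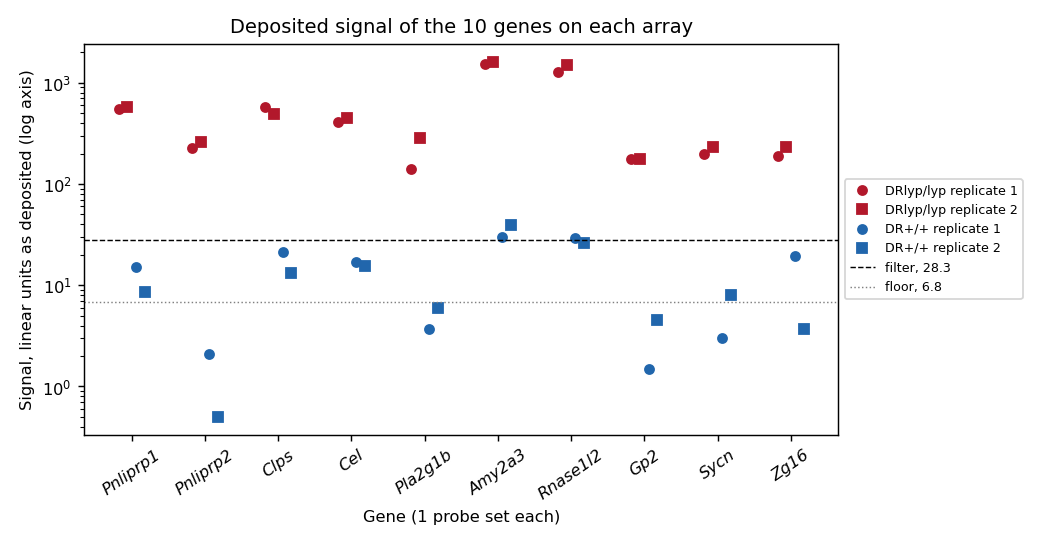
Deposited signal (log axis, linear units) of the 10 genes on each of the 4 arrays, with the filter of 28.3 and the floor of 6.8 as lines. DRlyp/lyp values lie between 139.6 and 1614.5 and DR+/+ values between 0.5 and 39.2; only Amy2a3 and 1 array of Rnase1l2 exceed the filter in the DR+/+ pool.

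Over the 10 genes, the lowest DRlyp/lyp value was 139.6 and the highest DR+/+ value was 39.2. In terms of rank within an array, which no rescaling changes, the members stood between the 72.7th and the 97.5th percentile of probe sets on the DRlyp/lyp arrays and between the 2.29th and the 55.4th on the DR+/+ arrays. In each gene the lower DRlyp/lyp array exceeded the higher DR+/+ array by a factor of 9.87 or more. All 10 were called higher in the limma fit over 16068 probe sets at an adjusted p under 0.05, where 19.3% of all probe sets tested were called higher. Both DRlyp/lyp arrays lay above both DR+/+ arrays in 10 of 10, against 34.6% of all probe sets tested. Nothing is read from these shares, because the genes were picked on this difference and for 8 of the 10 it was the DRlyp/lyp pool alone that carried them past the filter. Rnase1l2 had 1 DR+/+ array above the filter, where 2 arrays are needed, so only Amy2a3 would have passed on its DR+/+ values. In bulk RNA, more cells of a type and more RNA per cell cannot be told apart.

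On the floored scale the log2 differences, DRlyp/lyp minus DR+/+, ran from 4.19 for Zg16 to 5.65 for Rnase1l2 and Pnliprp1, with a median of 4.92, or 3.51 with the 8 dim genes at their bound. The median over all probe sets tested was 0.

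**Figure D2:**
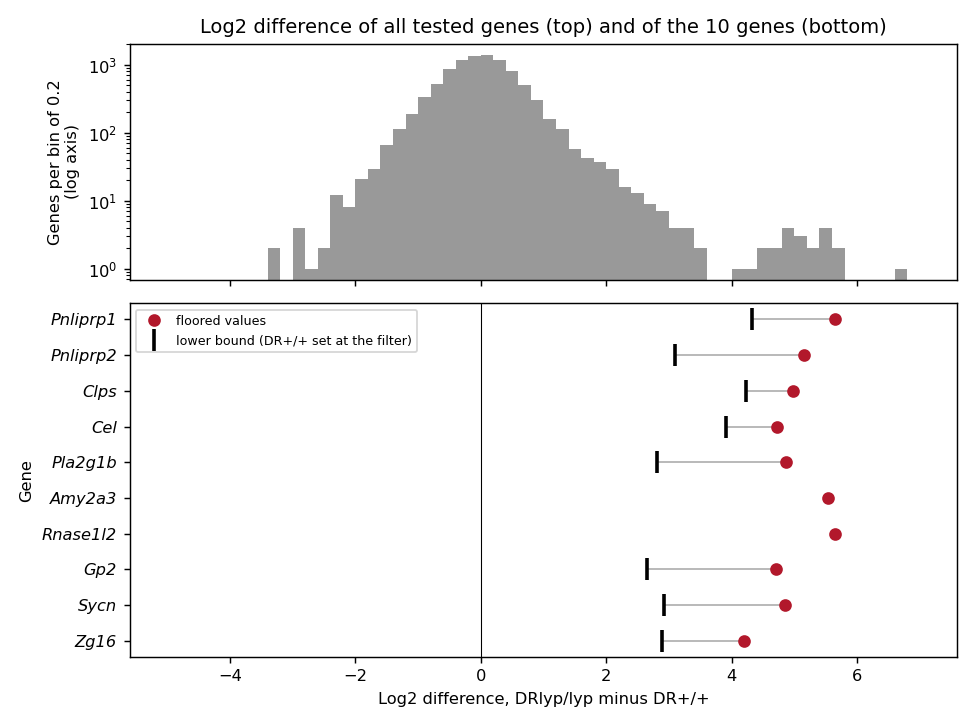
Top, number of genes (log axis) per bin of log2 difference, DRlyp/lyp minus DR+/+, for the 9349 genes tested. Bottom, the log2 difference of each of the 10 genes on floored values (circles, 4.19 to 5.65) and, for the 8 genes dim in the DR+/+ pool, the lower bound with that pool set at 28.3 (bars).

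The duplicate amplifications of the DRlyp/lyp pool gave close values for 9 of the 10 genes. The median gap between the 2 arrays was 0.21 on the log2 scale for the members and 0.15 for all tested probe sets. Pla2g1b was the exception at 1.02, a factor of 2.03, and 98.3% of tested probe sets had a smaller gap. Gp2 had the smallest gap of the group (0.02), followed by Amy2a3 (0.07) and Pnliprp1 (0.08). Replicate 2 was the higher array for 8 of the 10 genes, the exceptions being Clps and Gp2, against 49.1% of all tested probe sets. The median of replicate 2 minus replicate 1 was 0.16 for the members and 0 for all tested probe sets.

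**Figure D3:**
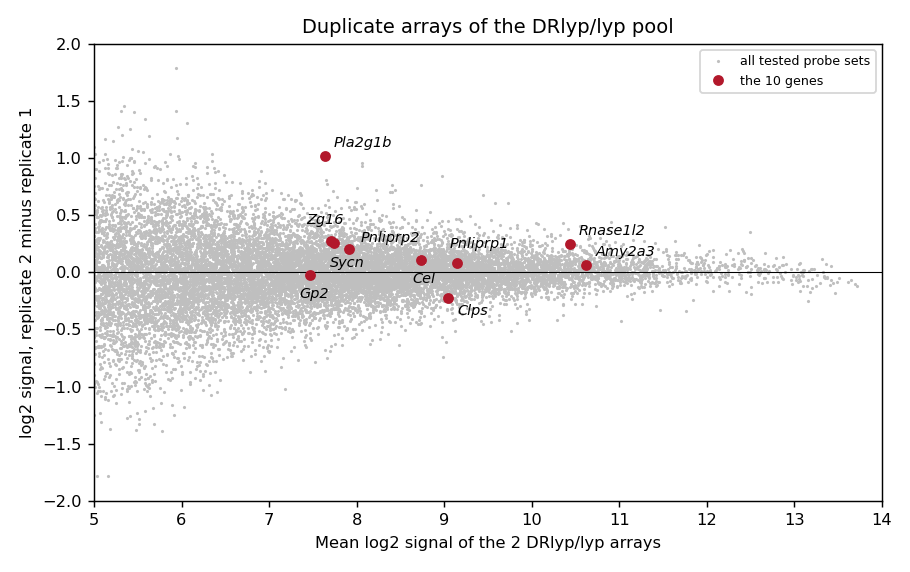
Log2 signal of DRlyp/lyp replicate 2 minus replicate 1 against their mean for all tested probe sets (grey) and the 10 genes (red). Pla2g1b stands 1.02 above the line of equal signal, and the other 9 genes lie between -0.23 and 0.28.

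Genes of the acinar cell outside the group were followed through lists chosen with earlier results of these data known. Of 20 proteases and inhibitors listed, 14 had a probe set and 12 were tested. All 12 were called higher, beside 19.3% of all probe sets tested. Their median log2 difference was 5.28 (4.30 with 6 dim genes at their bound). Without a filter, 14 were tested and 10 were called higher. The 12 included Ctrb1, a chymotrypsinogen, at least 38.6-fold, the elastase Cela3b, at least 16.2-fold, and Prss3, a trypsinogen, at least 10.8-fold. Ctrc, a chymotrypsin-like protease, lay above the filter on all 4 arrays, at 880.2 and 816.9 against 220.8 and 168.8 (4.39-fold). Spink1, the trypsin inhibitor, and Klk1, tissue kallikrein, did not exceed 20.5 on any array.

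Of 26 other genes of the acinar cell and its stress response, 20 had a probe set, 7 were tested and 2 were called higher. Pnlip, the triglyceride lipase for which colipase is the cofactor and the gene next to Pnliprp1 in the RefSeq order, read 989.5 and 963.4 against 26.6 and 38.2 (30.6-fold). Aqp12a, an aquaporin of acinar cells, read 54.4 and 58.8 against 17.8 and 39.5 (2.13-fold, adjusted p = 0.0496 by limma), a call lost when the filter or the intensity trend was dropped, when the floor was lowered or the scaling changed, and when either DRlyp/lyp array or the first DR+/+ array was left out (limma adjusted p from 0.0529 to 0.385). Reg1a, a lectin of the acinar secretion, read 36.1 and 40.9 against 22 and 13.8 and was not called (adjusted p = 0.0517 by limma). In this list 10 genes, Reg3b and Dmbt1 among them, lay below the filter on all 4 arrays.

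Markers of the duct and islets were mostly dim in both pools, as were 4 of the 8 listed regulators of the acinar cell with a probe set. Of 10 genes listed as acinar transcription factors and associated genes, 8 had a probe set and 3 were tested; limma called 0 of 3, with 1 higher and 1 lower at an unadjusted p under 0.05. These 3 were Xbp1, a factor of secretory cells that plasma cells also use (3518 ± 140 against 3422 ± 17.8), Bhlha15 (112 ± 9.55 against 159 ± 31.3) and the peroxidase Prdx4 (1049 ± 4.45 against 902 ± 36.6). Scaled on the hybridisation controls, 2 of the 3 were called lower, and centred on the array median 1 of 3 was. With the replicate number as a block, 1 was called higher and 1 lower. With the filter at the 75th percentile, 2 were tested and 1 was called higher. Ptf1a, which defines the acinar lineage, read 22.8 and 10.8 against 1.7 and 10.1, below the filter throughout. Of 22 duct and islet genes, 18 had a probe set and 4 were tested; limma called 0 of 4, with 2 higher at an unadjusted p under 0.05, and 13 lay below the filter on all 4 arrays. Ins1, an insulin gene, read 47.8 and 42.4 against 28.9 and 16.1 (2.09-fold, adjusted p = 0.0562 by limma), and the keratin Krt18 read 41.6 and 43.9 against 23.4 and 23.9 (at least 1.51-fold, adjusted p = 0.0805). Ins1 was called higher with an offset of 50, with the replicate number as a block and without DR+/+ replicate 1, and Krt18 without an intensity trend. Krt19, a duct keratin, did not exceed 4.1 and Gcg, glucagon, did not exceed 0.8.

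The 5 genes outside the group whose profile was most like that of the members were Cpb1, Cela1, Cela2a, Prss3 and Prss1. Likeness was the Euclidean distance, over the 4 arrays, between a gene's floored log2 values less their mean and the mean such profile of the members, and it ran from 0.41 for Cpb1 to 0.56 for Prss1. Cpb1, procarboxypeptidase B, read 1104.7 and 1076.7 against 26.8 and 26.2. With 2 arrays per pool, this distance mostly reflects the size of the difference between pools.

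The genes next to the members on the chromosome had smaller differences. Taking the nearest protein-coding gene in the RefSeq order with a probe set on either side, and leaving out members and listed acinar genes, 17 neighbours were found. Of these, 12 were tested, 2 were called higher, 2 lower and 8 neither, with log2 differences between -1.20 and 0.89 and a median of -0.05. Ralgds, beside Cel, was lower at 81.1 and 74.0 against 144.9 and 170.4, and Fkbp5, near Clps, was higher at 436.6 and 428.7 against 276.3 and 263.9. The call of Fkbp5 was lost when scaled on the hybridisation controls, and that of Ralgds without a filter. Umod, a relative of Gp2 that lies beside it, did not exceed 10.1 on any array.

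**Figure D4:**
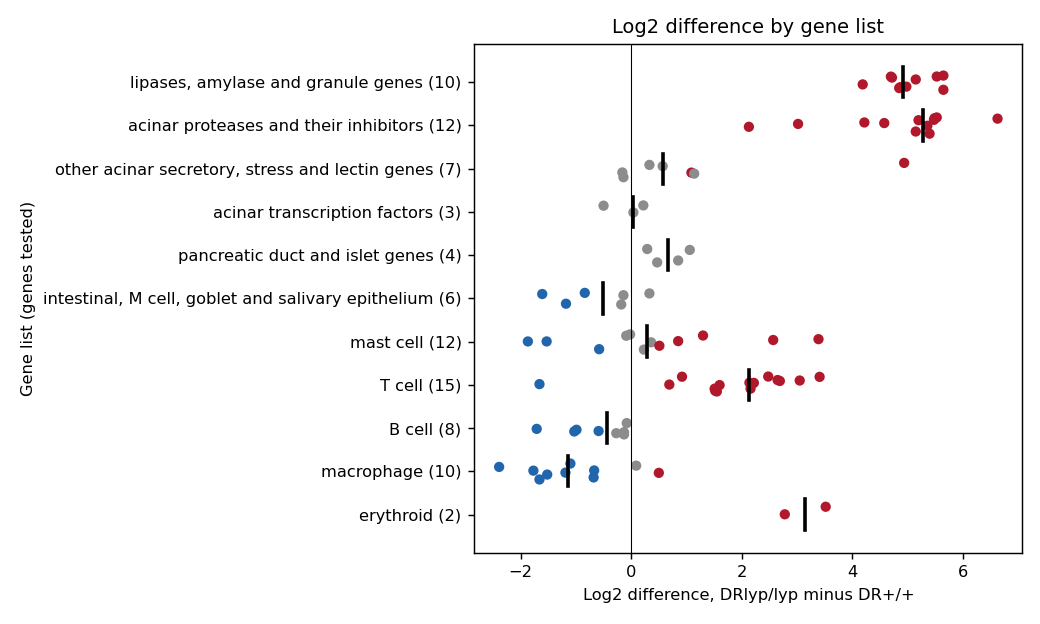
Log2 difference, DRlyp/lyp minus DR+/+, of each tested gene by list, red where called higher, blue where called lower and grey otherwise; the bar is the list's median and the number of genes tested follows its name. The 10 members (median 4.92) and the proteases (5.28) lie to the right of the other lists, whose medians run from -1.15 for macrophage to 3.15 for the 2 erythroid genes.

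Markers of other cells also differed between the pools. T cell genes were called higher in 14 of 15, beside 19.3% of all probe sets tested, and in 11 of 15 without a filter. Cd4 was lower, a call lost without a filter. Its log2 difference was -1.66, then -1.18 without DRlyp/lyp replicate 2 and -1.56 without DR+/+ replicate 2. The summed signal of the T cell list was 12200 to 12233 on the DRlyp/lyp arrays against 2767 to 3105 on the DR+/+ arrays. No marker of this list lay below the filter on all 4 arrays. Both tested erythroid genes, Hbb and Alas2, were higher, Alas2 not without a filter, with a summed signal of the list of 1583 to 1690 against 156 to 182, and 3 of its 5 genes with a probe set were dim on all arrays. Macrophage genes were lower in 8 of 10 and higher in 1 of 10 (summed signal 7736 to 7845 against 13948 to 14832). Without a filter 6 of 10 were lower, and scaled on the hybridisation controls 0 of 10 were higher. B cell genes were lower in 4 of 8 (11563 to 12338 against 14944 to 16226), or in 3 of 8 without a filter. After quantile normalization or median centring 6 of 8 were lower. It was 7 of 8 with the replicate number as a block and 8 of 8 when scaled on the hybridisation controls. Of all probe sets tested, 19.9% were called lower. In the list for gut and salivary epithelium, where Gp2, Zg16 and amylase can also be made, 3 of 6 tested genes were lower and 0 of 6 higher by limma (0 also at an unadjusted p under 0.05). Without a filter, 1 of 14 was lower. Of the 14 with a probe set, 7 were dim on all arrays, among them Vil1, Muc2, Fabp2 and Smr3b. The 3 lower genes were Agr2 (33.65 ± 9.26 against 100.8 ± 3.11), Cdh1 (74.55 ± 19.7 against 131.6 ± 11.8) and Tnfaip2 (84.15 ± 5.87 against 190 ± 2.97). With Tnfaip2 and Anxa5 (958 against 1089, not called) among the 6 tested, the count says little of these epithelia. Of 12 mast cell genes tested, 5 were higher and 3 lower (summed signal of the list 3248 to 3354 against 2160 to 2194). Scaled on the hybridisation controls 13 were tested, with 3 higher and 4 lower. Without a filter 14 were tested, with 2 higher and 1 lower. The list's median log2 difference was 0.30, then 0.33 without DRlyp/lyp replicate 1 and 0.16 without DRlyp/lyp replicate 2. The part of these cells in the signal of the 10 genes was not tested.

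The 3′ minus 5′ signal of control transcripts and the scaling moved with the pools as well. The 3′ minus 5′ log2 signal of the beta-actin control was 4.43 and 4.55 on the DRlyp/lyp arrays and 3.01 and 3.10 on the DR+/+ arrays. Bacterial transcripts that the standard protocol adds to the RNA before amplification were also higher in this measure on the DRlyp/lyp arrays. The mean differences were 1.16 for dap, 1.29 for phe, 0.85 for lys and 0.23 for thr. The 18 probe sets of hybridisation controls, transcripts that the standard protocol adds to the labelled sample, read 0.45 higher on the log2 scale on the DRlyp/lyp arrays. Scaled on them, the median of all tested probe sets shifted to -0.45 and the members' log2 differences ran from 3.86 for Zg16 to 5.20 for Rnase1l2. The higher calls then made up 10.7% of all calls, down from 49.3% under the deposited scaling, and 10 of the 10 genes were called higher. The parts of RNA length and of the amplification in the size of the differences were not tested.

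**Figure D5:**
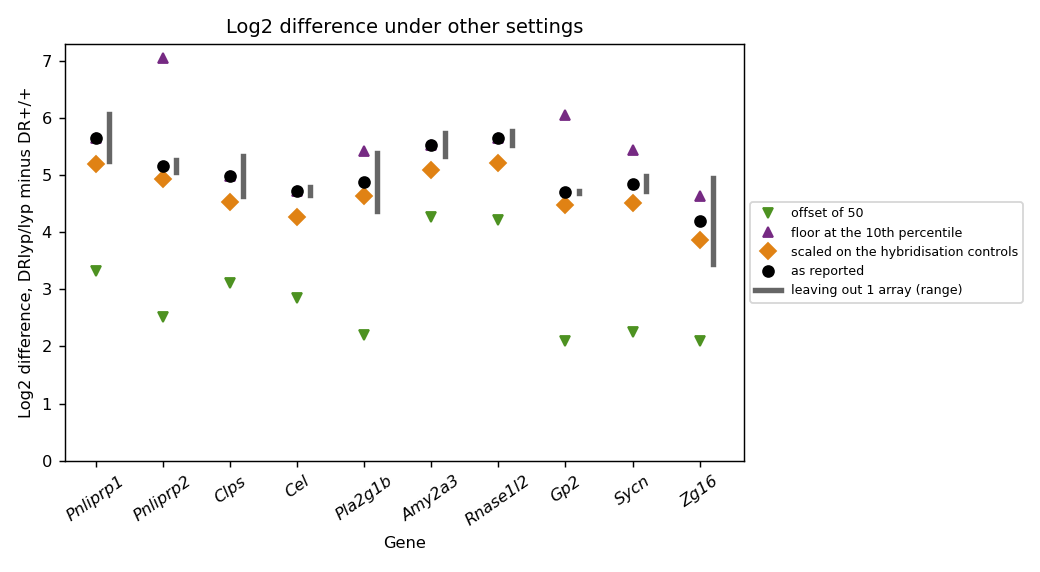
Log2 difference of each of the 10 genes, DRlyp/lyp minus DR+/+, as reported (black), with 50 added to every value instead of a floor, with the floor at the 10th percentile, scaled on the hybridisation controls, and as the range over fits that leave out 1 array (grey bars). The lowest value is 2.09 (Zg16), and Pnliprp2 spans 2.51 to 7.04.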

How the data were processed

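Rat Genome 230 2.0 arrays of 2 RNA pools, 2 arrays each, were analysed. Per probe set and array, 1 intensity was deposited, in linear units; the authors' program is not given in the sources used here. Their 2% trimmed mean was 150.1 on each array, so the authors' scaling was kept. Groups came from the sample titles, where DP was read as DRlyp/lyp and DR as DR+/+ from each sample's description.

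Of 31099 probe sets, 57 controls were set aside. Values below the pooled 25th percentile (6.8) were set to it before taking log2. The 16068 probe sets that exceeded the median of all values (28.3) on 2 or more arrays were tested with limma 3.58.1 in R 4.3.3 (intensity trend, two-sided, Benjamini-Hochberg adjustment over all of them, threshold 0.05, 2 residual degrees of freedom). The p-values compare the 2 pools, not the strains. The arrays' number limits the precision, and no detection calls were used. A simulation with independent normal noise, without floor or filter, required only that planted differences be recovered on average. It gives no error rate for the calls reported here.

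Gene symbols are those of the platform annotation of 2016; 20826 probe sets had 1 symbol, 436 several and 9780 none, and no gene was named from several. Where a gene had several tested sets, that of highest mean log2 signal was used. Promoters and gene order are from RefSeq (GRCr8). The plan was to name the 10 genes, the 5 most alike, Kit, Cpa3 and Cma1. From each list it took up to 3 genes called in each direction, or the brightest where none was called. Many of these list genes are not printed, and other names were chosen after their values were seen. The members and lists were chosen with earlier results of these data known. Plots used Python 3.11.15 and matplotlib 3.10.9. Alternatives varied the normalization, filter, floor, block, arrays, trend and probe set rule.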

Additional observations from a re-analysis of the deposited data

How the results depend on the processing

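The log2 differences of the 10 genes kept their sign under the 14 alternatives run for each. Of these, 5 (the 2 filters, the block, no intensity trend, and averaging probe sets per gene) cannot move the difference of these genes. Under the other 9, 60 of 90 values lay within 1 SD between duplicate arrays, pooled over the groups, of the value reported. Leaving out 1 array can shift a difference by at most that SD, so those fits were bound to lie within it or at its edge. The count is therefore no measure of stability. The lowest came with an offset of 50 (2.09 for Zg16) and the highest with the floor at the 10th percentile (7.04 for Pnliprp2). All 10 were called higher except without a filter, where Zg16 and Pla2g1b were not (8 called), and with the filter at the 75th percentile, which removed Pla2g1b (9 called). With a dim pool set at that 75th percentile, 164.7, bounds fell to at least 1.08-fold for Gp2 and at least 3.44-fold for Pnliprp1.

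Over all probe sets, 6302 were called. The count was 1671 without a filter, 4057 without an intensity trend and 3794 when probe sets of a gene were averaged. The first tests 31042 probe sets and the last 9349 genes, but the cause of these lower counts was not tested. Without a filter the limma adjusted p of Hbb was 0.0292, against 1.9e-09 as reported. That of Pnlip was 0.032, against 7.9e-09. Their log2 differences stayed at 3.52 and 4.94. Leaving out 1 array gave 3478 to 5800, the lowest without DRlyp/lyp replicate 1 and 3767 without DRlyp/lyp replicate 2. The share of calls that were higher was 49.3%, against 35.9% with each array centred on its median. Scaling on the hybridisation controls, chosen after seeing the data, gave 8172 calls. With the replicate number as a block 7044 were called. Same-numbered arrays share only a number, with a correlation of their deviations of 0.044. Under these 2 settings the limma adjusted p of Pnlip was 6.23e-91 (scaled) and 1.24e-150 (block), against 7.9e-09 as reported. Its log2 difference was no larger (4.49 and 4.94, against 4.94). The counts under these 2 settings are therefore not read as an effect of the scaling or the block.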

Other observations

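Among the control probe sets, the bacterial transcripts that the standard protocol adds to the RNA before amplification also had a larger 3′ minus 5′ log2 signal on the DRlyp/lyp arrays. The mean of the DRlyp/lyp arrays minus that of the DR+/+ arrays was 1.16 for dap, 1.29 for phe, 0.85 for lys and 0.23 for thr, beside 1.44 for beta-actin and 0.81 for Gapdh. The 3 probe sets of the trp control did not exceed 11.1 on any array, and those of hexokinase did not exceed 15.8, values that lie among the DR+/+ values of the 10 genes.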
